A study of Mus musculus with 9 samples.

Results

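The genes described here encode membrane carriers for sugars, amino acids, small peptides and monocarboxylates. They were chosen by symbol alone, as genes of the families Slc1a, Slc2a, Slc3a, Slc5a, Slc6a, Slc7a, Slc15a, Slc16a, Slc36a, Slc38a and Slc43a. The array carried 106 such genes among 18193 genes in all. Of these 106, 37 reached the level minimum, which was a log2 intensity of 4 on at least 3 of the 9 arrays, and 69 did not. The measured share was 34.9%, against 51.8% of all genes. Of the 37, 36 encode transporters, and Slc7a6os carries a family symbol but encodes no transporter.

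All 9 arrays were of m-ICcl2, a mouse small intestinal epithelial line of C57BL/6 background that carries the SV40 large T antigen and was derived from fetal small intestine. The 3 groups had 3 arrays each, labelled as biological replicates, and all came from this 1 line. The labels do not say what separated the replicates, so p-values measure the spread between these arrays. Cells were left unstimulated, were given 100 ng/mL of LPS (lipopolysaccharide of E. coli D31m4, a bacterial cell wall component) for 6 h, or were given LPS for 6 h and then kept in LPS-free medium for 90 h. The labels call the 6 h group the acute and the later group the tolerant response. No untreated cells kept in culture for the same 96 h were analysed here, so LPS exposure and time in culture cannot be told apart in the later group, called the LPS-free group below. The sources used here do not give the promoter that drives the transgene.

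Cells import nutrients through a few structural classes of carrier. Facilitative glucose carriers (SLC2) let hexoses pass down their gradient, while sodium-coupled carriers (SLC5) pull sugars, inositol and other solutes in against it. Amino acid exchangers of the SLC7 family work as pairs with a glycoprotein heavy chain (SLC3), the SLC1, SLC6 and SLC38 carriers run on sodium, and the SLC15 and SLC36 carriers run on protons. In the small intestine, carriers of the brush border take up sugars, peptides and amino acids from the lumen, and those of the basolateral membrane pass them to the blood.

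The arrays were alike in level, with a median over all tested genes of 7.62 to 7.84. The replicate 1 arrays of all groups stood apart in control probes. The 3' minus 5' difference of the actin probes was 0.40 to 0.72 on these 3 arrays and 1.02 to 1.38 on the other 6, and the 5' probe set of 18S ribosomal RNA read 7.27 to 10.2 against 3.38 to 5.76. Where a fit with a block for the replicate number changes a transporter call, its value or range is printed too, and for the other gene lists the blocked counts are given. The part of RNA quality in the results was not tested. Of 10 epithelial markers, Krt8, Krt18, Cldn4, Tjp1 and Vil1 were above log2 4 on all arrays, and of these Krt18, Cldn4 and Tjp1 were called higher in the LPS-free group than in unstimulated cells. Epcam was also called higher, by at least 3.11-fold, but was below log2 4 on all earlier arrays and passed the level minimum through the LPS-free arrays alone, and Cdh1, Krt19, Cldn3 and Cldn7 stayed below log2 4 on all arrays. The summed log2 level of the 10 was 61.2 to 62.7 in unstimulated cells, 60.4 to 62.3 at 6 h and 68.9 to 70.6 in the LPS-free group. Of the 13 enterocyte markers on the array, 8 (Alpi, Lct, Fabp2, Apoa1, Apoa4, Mep1b, Cdx1 and Cdx2) were below log2 4 on all arrays, so these defining genes of mature enterocytes were not measurable here, while Cdh17 was called higher late (2.04) and Mep1a (-1.35) and Hnf4a (-1.80) lower. The summed level of the 13 was 50.9 to 52.8, 48.8 to 49.6 and 48.7 to 49.8. Of 9 leukocyte markers, 8 including Ptprc were below log2 4 on all arrays and the exception was Csf1r, which fell late by 1.95 on the log2 scale, with summed levels of 29.6 to 31.7, 29.7 to 31.3 and 27.2 to 28.7. Of 9 fibroblast markers, Vim alone was measured, and all 5 endothelial and all 5 neuronal markers were below log2 4. The part of these marker changes in the transporter results was not tested, and fewer cells of a type and less RNA per cell cannot be told apart in RNA from whole cultures.

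In the LPS-free group against unstimulated cells, 5 of the 37 measured genes rose and 11 fell (limma, Benjamini-Hochberg adjusted p below 0.05 over 9431 genes). The risers were the inositol carrier Slc5a3, the mannose and fructose carrier Slc5a10, the lactate carrier Slc16a1, and Slc16a4 and Slc38a6. Those that fell were the amino acid carriers Slc7a5, Slc7a7, Slc7a9, Slc43a2, Slc16a10, Slc1a4, Slc36a1 and Slc38a7, the taurine carrier Slc6a6, the GABA carrier Slc6a13 and the creatine carrier Slc6a8. The 16 calls are 43.2% of the 37, beside 26.2% of all genes tested. By direction, 13.5% rose beside a background of 14%, and 29.7% fell beside 12.2%. The share that rose was thus near the background and the share that fell was above it, as a description of genes chosen by symbol. The median log2 difference of the 37 genes was -0.33, against -0.07 over all genes. Slc5a10 passed the level minimum through the LPS-free arrays alone, and without it 15 calls remained, 4 higher and 11 lower.

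With the replicate number as a block, 23 of the 37 genes (62.2%) were called, 8 higher and 15 lower, beside 48.6% of all genes. The higher share was 21.6%, beside 22.7% of all genes, and the lower share 40.5%, beside 25.9%. The 7 genes gained by the block were Slc2a1, Slc16a6 and Slc38a2 (higher) and Slc3a2, Slc6a17, Slc16a13 and Slc38a3 (lower), and no call was lost.

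At 6 h of LPS against unstimulated cells, 0 of the 37 genes were called by limma without the block, beside 0.0636% (6) of all genes. At an unadjusted p below 0.05 there were 5, of which Slc5a3, Slc38a6 and Slc16a4 were higher and Slc7a7 and Slc6a8 lower. With the replicate block, 8 genes (21.6%) were called, beside 24% of all genes: Slc5a3, Slc16a6 and Slc38a6 higher, and Slc6a8, Slc6a13, Slc7a7, Slc16a13 and Slc38a3 lower. Their blocked adjusted p ran from 0.0316 (Slc6a13) to 0.0498 (Slc6a8). Without replicate 3 of the 6 h group, Slc5a3 was called by the fit without the block. The median log2 difference of the 37 genes was -0.24, and that of all genes -0.11.

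From 6 h to the LPS-free group, 4 genes rose (Slc2a1, Slc5a3, Slc5a10 and Slc16a1) and 6 fell (Slc6a6, Slc7a5, Slc7a7, Slc16a10, Slc36a1 and Slc43a2). These 10 are 27.0% of the 37, beside 13.1% of all genes; 10.8% rose beside 7.1%, and 16.2% fell beside 6.02%. Without Slc5a10, which passed the level minimum through the LPS-free arrays alone, 3 rose. With the block 16 genes (43.2%) were called, beside 31.7%. By direction, 16.2% were higher beside 16%, and 27% lower beside 15.7%. The 6 gained were Slc16a6 (adjusted p = 0.0148) and Slc6a18 (0.0382), higher, and Slc6a13 (0.00312), Slc6a17 (0.00572), Slc7a9 (0.0331) and Slc38a7 (0.0380), lower. The comparisons with unstimulated cells and with 6 h cells share the LPS-free arrays, so their calls are not independent of each other. The count was 6 without LPS-free replicate 2, which lost Slc2a1, Slc6a6, Slc7a5 and Slc16a1, and 5 without LPS-free replicate 3, which lost these 4 and Slc36a1.

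**Figure D1:**
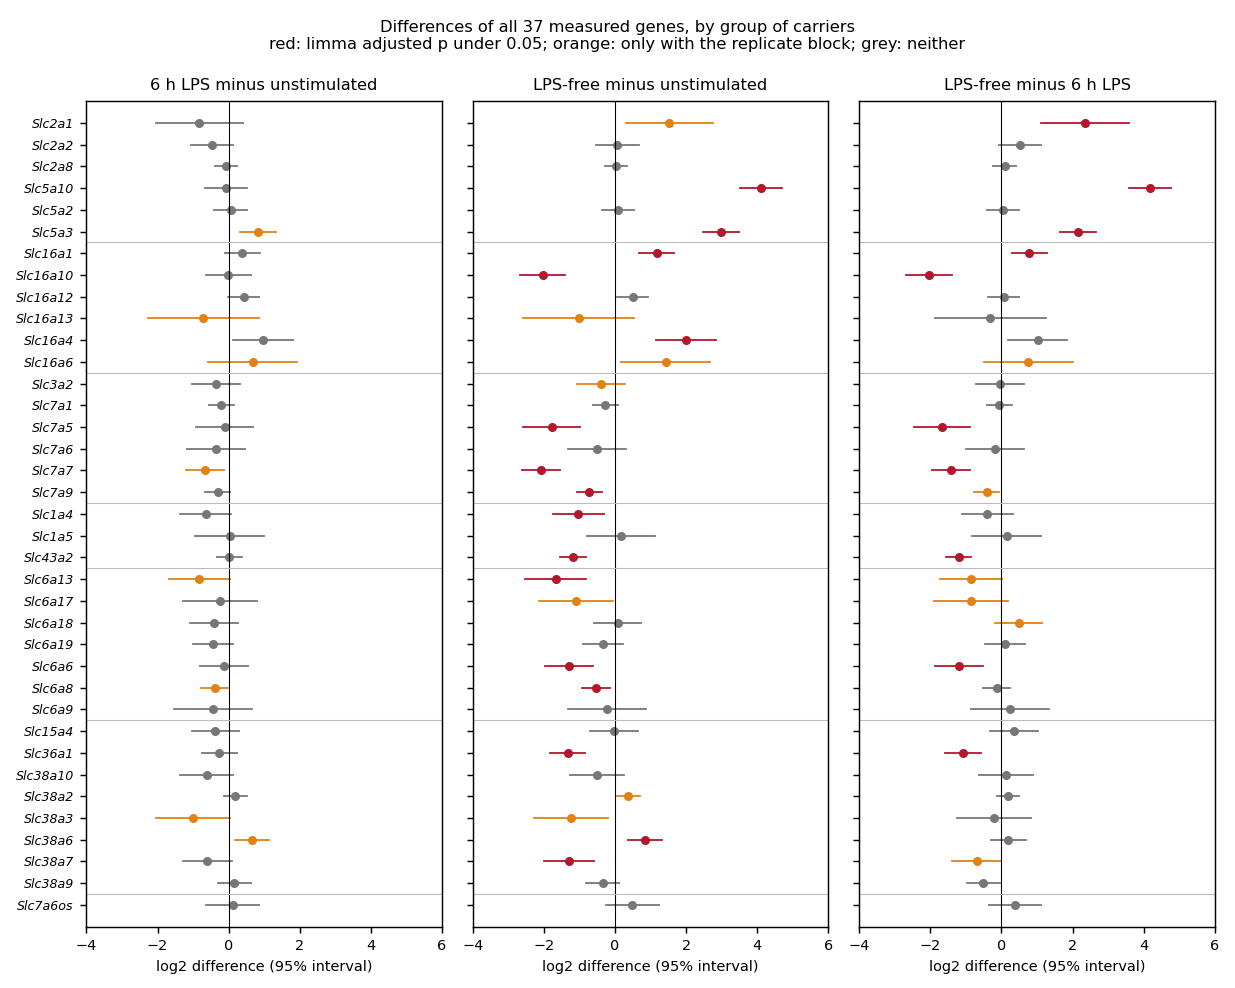
Log2 differences (points) with 95% intervals (lines) of all 37 measured genes in the 3 comparisons, ordered by group of carriers; red marks an adjusted p under 0.05 by limma, orange a call made only with the replicate block, grey neither. Red points appear in the middle and right panels and none in the left, and the 3 carriers Slc5a10, Slc5a3 and Slc2a1 lie to the right of 0 in the right panel. The earlier arrays of Slc5a10 were all below the level minimum, so its left point gives no difference, and its middle and right points are read only as a rise of at least 11.6-fold.

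Promoter sequence is shown for the called genes whose start site lies beside a DNA motif of nutrient-responsive transcription. The E-box CACGTG, which reads the same on both strands, is bound by basic helix-loop-helix factors such as Myc, Mondo and TFEB family members. The motif TTGCATCA, TGATGCAA on the other strand, is a form of the amino acid response element bound by ATF4 with C/EBP partners. RefSeq promoters (GRCm38.p6) were searched on both strands from 250 bases before to 10 bases after the start, and these 2 motifs do not overlap each other. Of the 37 measured genes, 28 had 42 listed starts. CACGTG lay at 4 of them, in Slc16a1, Slc36a1, Slc38a7 and Slc16a12, and in 6.34% of all 32851 starts in the table. TTGCATCA lay at 3 starts of Slc1a4 and Slc7a7, and in 0.828% of all starts. These are counts of starts, and the 2 starts of Slc7a7 have overlapping windows that hold the same site. Capitals mark the motif in the following sequences, which run 5′ to 3′ on the strand of the gene and come from chr3:104638414-104638673 (plus strand, Slc16a1), chr11:55204090-55204349 (plus, Slc36a1), chr8:95853482-95853741 (minus, Slc38a7), chr11:20332704-20332963 (minus, Slc1a4) and chr14:54417935-54418194 (minus, Slc7a7, 1 of its 5 listed starts).
Slc16a1: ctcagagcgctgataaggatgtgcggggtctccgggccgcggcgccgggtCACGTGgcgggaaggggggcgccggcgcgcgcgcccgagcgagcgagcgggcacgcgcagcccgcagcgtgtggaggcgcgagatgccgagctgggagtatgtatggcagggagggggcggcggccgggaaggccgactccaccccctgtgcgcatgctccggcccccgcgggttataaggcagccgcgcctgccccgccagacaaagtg
Slc36a1: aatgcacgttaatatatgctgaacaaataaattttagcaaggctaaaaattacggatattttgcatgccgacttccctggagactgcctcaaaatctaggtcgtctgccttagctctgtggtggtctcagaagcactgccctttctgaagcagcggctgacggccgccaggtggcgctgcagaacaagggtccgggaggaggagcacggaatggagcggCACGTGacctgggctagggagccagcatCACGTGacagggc
Slc38a7: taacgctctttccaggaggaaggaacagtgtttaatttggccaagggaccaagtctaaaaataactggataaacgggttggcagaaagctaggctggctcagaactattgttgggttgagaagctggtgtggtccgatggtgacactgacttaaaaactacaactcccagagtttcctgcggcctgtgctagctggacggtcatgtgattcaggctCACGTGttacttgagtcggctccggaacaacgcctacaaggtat
Slc1a4: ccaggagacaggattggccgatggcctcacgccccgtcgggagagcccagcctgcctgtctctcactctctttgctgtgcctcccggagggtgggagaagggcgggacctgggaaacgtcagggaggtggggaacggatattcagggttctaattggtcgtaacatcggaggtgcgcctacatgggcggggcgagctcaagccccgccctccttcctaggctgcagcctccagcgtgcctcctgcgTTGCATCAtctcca
Slc7a7: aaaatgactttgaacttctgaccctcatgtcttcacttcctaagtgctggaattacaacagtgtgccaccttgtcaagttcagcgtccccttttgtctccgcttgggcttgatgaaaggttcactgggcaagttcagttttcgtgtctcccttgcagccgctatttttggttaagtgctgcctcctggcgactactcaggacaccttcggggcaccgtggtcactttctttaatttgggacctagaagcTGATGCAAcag
The E-box of Slc16a1, which rose, began at position -200 from the start. In Slc36a1, which fell, 2 E-boxes began at -31 and -3, and in Slc38a7, which also fell, 1 began at -34. The element of Slc1a4 began at -4 and that of Slc7a7 at -1, and both genes fell. From another listed start of Slc7a7, the same site began at -243. Genes with the E-box thus moved in both directions. A match of letters is a description and shows no binding.

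Among the sugar and polyol carriers, 3 of 12 SLC2 genes and 3 of 13 SLC5 genes were measured. Of these 6, 2 rose late, none fell, and 4 did not pass the test. Over all genes 14% rose and 12.2% fell, and counts in groups this small are descriptions. Slc5a3 encodes SMIT1, which brings the osmolyte myo-inositol into cells with sodium. Its log2 intensity was 7.97, 8.11 and 8.45 on the unstimulated arrays, 8.96, 9.41 and 8.63 at 6 h, and 11.03, 11.27 and 11.14 in the LPS-free group. The 3 groups did not overlap, and they lay in the order unstimulated, 6 h, LPS-free. The late difference was 2.97 ± 0.22 (SE), a 7.84-fold rise (adjusted p = 9.98e-05), and the step from 6 h was 2.15, or 4.44-fold (adjusted p = 0.000520). At 6 h the difference was 0.82, with an adjusted p of 0.117 and of 0.0337 with the replicate block. A further probe set of the gene gave a late log2 difference of 3.22.

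Slc5a10 encodes SGLT5, a sodium-coupled carrier of mannose and fructose best known from kidney. It read 3.29, 3.61 and 3.37 in unstimulated cells and 3.33, 3.32 and 3.39 at 6 h, all below the level minimum, but 8.18, 7.12 and 7.29 in the LPS-free group. Each LPS-free array was thus far above each of the other 6. Set against the level minimum itself, the rise was at least 11.6-fold. The gene entered the tested set through the LPS-free arrays alone, so its adjusted p is not read as support for the rise.

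Slc2a1 encodes GLUT1, the glucose carrier of most dividing and cultured cells. Its values were 11.08, 11.91 and 11.99 in unstimulated cells, 9.48, 11.17 and 11.84 at 6 h, and 12.79, 13.23 and 13.53 in the LPS-free group. All LPS-free arrays were above all others, and replicate 1 was the lowest array in each group. From 6 h the rise was 2.35 ± 0.54 (SE), or 5.10-fold (adjusted p = 0.0222), and this call was lost without LPS-free replicate 2 or 3 (adjusted p up to 0.0796). Against unstimulated cells the difference was 1.52, with an adjusted p of 0.0682 and of 0.00343 with the replicate block. Its other probe sets gave 1.93 and 2.0 for that difference, and the mean over its probe sets was called. At 6 h it was lower by 0.83 in log2, with all pairs of the same replicate number lower (adjusted p = 0.390, or 0.0657 with the block).

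Slc2a2 encodes GLUT2, the basolateral glucose carrier of enterocytes. It read 5.0, 5.26 and 4.73 in unstimulated cells, 4.06, 4.73 and 4.80 at 6 h, and 4.72, 5.04 and 5.42 in the LPS-free group, and these groups overlapped. Late against unstimulated cells, it differed by 0.06, with a 95% interval of -0.53 to 0.66. The intracellular hexose carrier Slc2a8 and the renal glucose carrier Slc5a2 differed by 0.02 and 0.09, with intervals of -0.29 to 0.33 and -0.36 to 0.54.

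The carriers that define sugar and peptide uptake at the brush border were below the level minimum. The sodium-glucose carrier Slc5a1 (SGLT1) reached at most 3.21, the fructose carrier Slc2a5 (GLUT5) 2.39, the peptide carrier Slc15a1 (PEPT1) 2.90, and the neuronal-type glucose carrier Slc2a3 2.44. In the amino acid families, Slc3a1, the heavy chain of the cystine carrier, reached 2.82, the basolateral exchanger Slc7a8 2.45, the cystine-glutamate exchanger Slc7a11 3.06, the glutamate carrier Slc1a1 2.71, the glutamine carrier Slc38a1 2.59 and Slc43a1 2.08. The lactate exporter Slc16a3 (MCT4) reached 2.28. Of the 69 unmeasured genes, 67 were under log2 3.5 on all arrays. The pseudogene Slc2a4rg-ps was the only one with any value of log2 4 or more, with a highest value of 4.46, and Slc6a2 reached 3.82. Such values mark an upper bound of these probe sets and do not show that the transcript was absent.

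**Figure D2:**
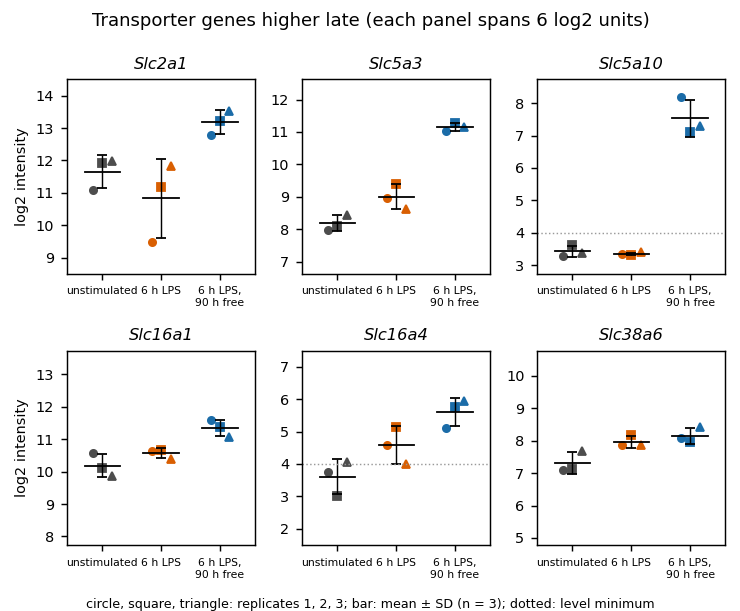
Log2 intensity by array of 6 transporter genes that were higher in the LPS-free group; circles, squares and triangles are replicates 1, 2 and 3, bars the mean ± SD of 3 arrays, and the dotted line the level minimum of log2 4. In Slc5a10 the 6 earlier arrays lie below the line and the 3 LPS-free arrays at 7.12 to 8.18. Slc2a1 was called against 6 h and, against unstimulated cells, only with the replicate block.

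Of the SLC16 carriers, 6 of 13 were measured. Late, 2 of the 6 rose (beside 14% of all genes), 1 fell (beside 12.2%) and 3 did not pass the test. Slc16a1 encodes MCT1, which moves lactate, pyruvate and ketone bodies with a proton. It read 10.56, 10.12 and 9.86 in unstimulated cells, 10.64, 10.67 and 10.39 at 6 h, and 11.59, 11.38 and 11.08 in the LPS-free group. The LPS-free arrays were above all others, and the earlier groups overlapped. The late difference was 1.17 ± 0.22 (SE), or 2.25-fold (adjusted p = 0.00569), and it was called with each of the 9 arrays left out in turn. The step from 6 h, 0.79, had an adjusted p of 0.0468. It was called with 2 of 9 arrays left out, those of unstimulated replicates 1 and 3. Without unstimulated replicate 2, any 6 h array or any LPS-free array its adjusted p rose to at most 0.141.

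Slc16a4 encodes MCT5, whose substrate is not well defined. It read 3.74, 3.02 and 4.05 in unstimulated cells, 4.60, 5.15 and 4.0 at 6 h, and 5.10, 5.75 and 5.95 in the LPS-free group. The first and last groups did not overlap. The late rise of 1.99 ± 0.37 (SE) had an adjusted p of 0.00543, and since 2 of the 3 unstimulated arrays were below the level minimum its size rests on values near the floor. Slc16a6 rose late only with the replicate block, at 1.43 (adjusted p = 0.000581, or 0.0885 without it), and its replicate 1 array was the lowest of each group. The creatine carrier Slc16a12 differed by 0.49, with an adjusted p of 0.0917.

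Slc16a10 encodes TAT1, the basolateral carrier of aromatic amino acids. Its values were 6.88, 6.32 and 6.03 in unstimulated cells, 6.50, 6.28 and 6.45 at 6 h, and 4.18, 4.02 and 4.92 in the LPS-free group. No LPS-free array came within 1 log2 unit of the lowest earlier array. It fell by 2.04 on the log2 scale, a 4.11-fold difference (SE 0.28, adjusted p = 0.00155), and the difference at 6 h was -0.01 (95% interval -0.65 to 0.64). A further probe set gave -2.46 late, but -0.61 at 6 h, so the 2 probe sets differ on the 6 h change. The LPS-free mean of the further probe set was 3.25, below the level minimum, so the size of its late difference rests on values near the floor. Slc16a13 was lower only with the block, by -1.03 (adjusted p = 0.00362, or 0.309 without it).

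Of the SLC3 and SLC7 families, 6 transporter genes were measured. Of these, 3 fell late (beside 12.2% of all genes), none rose (beside 14%) and 3 did not pass the test. Slc7a5 encodes LAT1, which exchanges large neutral amino acids such as leucine across the surface. It read 8.24, 7.67 and 7.30 in unstimulated cells, 8.37, 7.10 and 7.39 at 6 h, and 6.14, 6.00 and 5.71 in the LPS-free group. The earlier groups overlapped, and all LPS-free arrays were below both. It fell by 1.79 on the log2 scale (SE 0.35), 3.45-fold, with an adjusted p of 0.00686, and by 1.67 from 6 h (adjusted p = 0.0149). The latter call was lost without LPS-free replicate 2 or 3 (adjusted p up to 0.0597).

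Slc7a7 encodes y+LAT1, which exports cationic amino acids across the basolateral membrane in exchange for neutral ones. Its values were 8.68, 8.17 and 7.77 in unstimulated cells, 7.63, 7.44 and 7.57 at 6 h, and 6.39, 6.00 and 6.01 in the LPS-free group. No groups overlapped, and each later group was below the former. The late difference was -2.07 ± 0.24 (SE), or 4.21-fold (adjusted p = 0.000624). Both steps were called with the block, since the 6 h difference of -0.66 had an adjusted p of 0.0359 with it and 0.154 without it. A further probe set gave a late difference of -2.21.

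Slc7a9 encodes b0,+AT, the apical carrier of cystine and cationic amino acids. It read 8.70, 8.48 and 8.65 in unstimulated cells, 8.33, 8.22 and 8.35 at 6 h, and 8.09, 7.76 and 7.80 in the LPS-free group. The 3 groups did not overlap, and the late difference was -0.72 ± 0.15 (SE), or 1.65-fold (adjusted p = 0.00967). Its heavy chain Slc3a1 was below the level minimum.

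Slc3a2 encodes the heavy chain 4F2hc, shared by Slc7a5, Slc7a6 and Slc7a7. Its values were 11.39, 10.63 and 10.55 in unstimulated cells, 10.87, 10.23 and 10.42 at 6 h, and 10.94, 10.20 and 10.26 in the LPS-free group, with replicate 1 highest in each group. The late difference of -0.39 (95% interval -1.07 to 0.29) had an adjusted p of 0.380, and of 0.0336 with the block. The intervals of Slc7a5 (-2.58 to -0.99) and Slc7a7 (-2.61 to -1.54) are beside it, and the difference between the genes was not tested. Slc7a1 encodes CAT1, the main carrier of arginine and lysine in dividing cells. It read 10.02, 9.81 and 9.69, then 9.55, 9.66 and 9.70, then 9.69, 9.59 and 9.43, and the late difference was -0.27 (adjusted p = 0.233). Slc7a6 was -0.51, with a 95% interval of -1.33 to 0.30, and its further probe set gave 0.25.

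**Figure D3:**
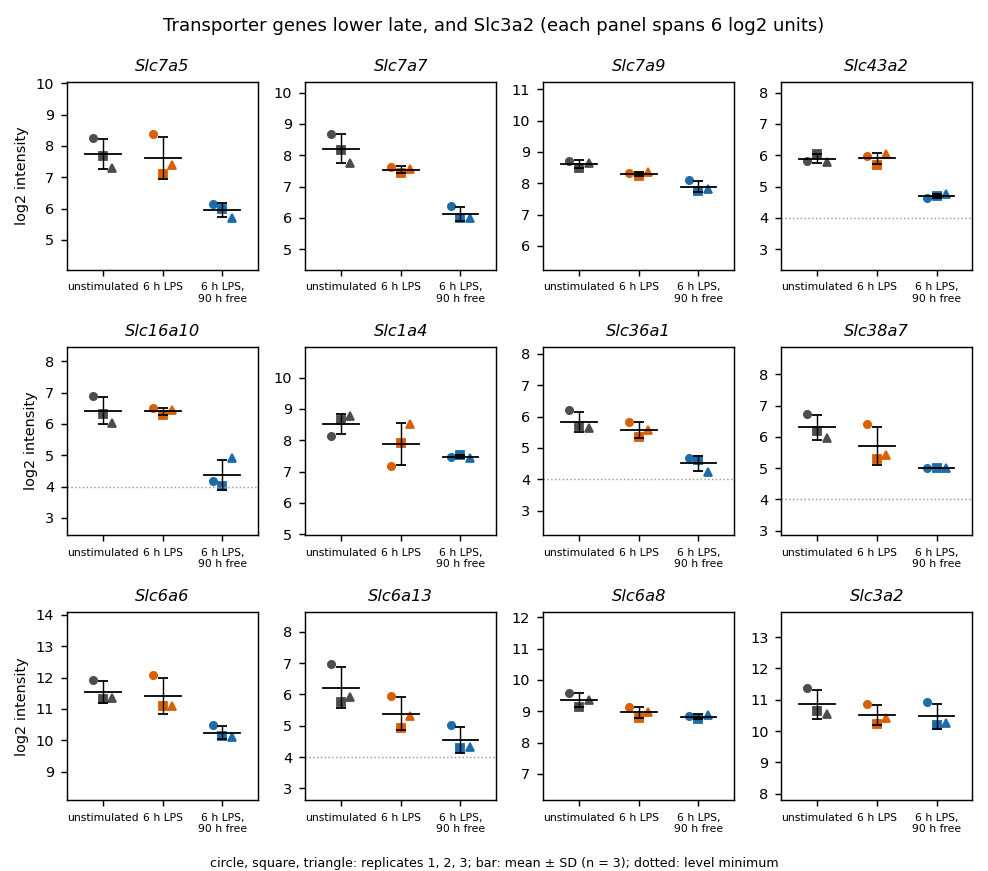
Log2 intensity by array of 11 transporter genes that fell late, with the heavy chain Slc3a2 as the last panel; symbols are replicates, bars the mean ± SD of 3 arrays and the dotted line the level minimum. In Slc7a5, Slc7a7, Slc16a10, Slc36a1, Slc43a2 and Slc6a6 all LPS-free arrays lie below all 6 earlier arrays, and Slc3a2 shows overlapping groups.

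Among the SLC1 and SLC43 carriers of neutral amino acids, 2 of 3 measured genes fell late, beside 12.2% of all genes. Slc43a2 encodes LAT4, a basolateral carrier of branched-chain and other neutral amino acids. It read 5.83, 6.05 and 5.78 in unstimulated cells, 5.98, 5.69 and 6.03 at 6 h, and 4.64, 4.69 and 4.77 in the LPS-free group. The LPS-free arrays lay close together and below all others. The late difference was -1.19 ± 0.16 (SE), or 2.27-fold (adjusted p = 0.00123), and the step from 6 h was -1.20 (adjusted p = 0.00169). A further probe set near the level minimum gave -0.41, a difference of over 1.5-fold from the one used.

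Slc1a4 encodes ASCT1, an exchanger of alanine, serine and cysteine. Its values were 8.15, 8.64 and 8.78 in unstimulated cells, 7.18, 7.92 and 8.53 at 6 h, and 7.47, 7.54 and 7.43 in the LPS-free group. The unstimulated and LPS-free arrays did not overlap, while the 6 h arrays spanned both. The late difference was -1.04 ± 0.32 (SE), with an adjusted p of 0.0414. It was called with 3 of 9 arrays left out, and without unstimulated replicate 2 or 3, 6 h replicate 2 or any LPS-free replicate its adjusted p rose to at most 0.120. Its 2 other probe sets gave -1.09 and -0.37. The glutamine carrier Slc1a5 (ASCT2) read 9.19, 8.25 and 8.33, then 9.51, 8.05 and 8.29, then 9.30, 8.47 and 8.52, and did not pass the test (late difference 0.17, 95% interval -0.79 to 1.13). Its replicate 1 array was the highest of each group.

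The SLC6 carriers are coupled to sodium and chloride, and 7 of 21 were measured. Of these, 3 fell late (beside 12.2% of all genes) and none rose (beside 14%). Slc6a6 encodes TauT, the carrier of the osmolyte taurine. It read 11.93, 11.33 and 11.36 in unstimulated cells, 12.08, 11.10 and 11.08 at 6 h, and 10.47, 10.14 and 10.09 in the LPS-free group. The LPS-free arrays were below all others. It fell by 1.31 on the log2 scale (SE 0.30), 2.47-fold, with an adjusted p of 0.0128 (0.0510 without LPS-free replicate 2), and by 1.19 from 6 h. That step had an adjusted p of 0.0309, and of up to 0.105 where any 1 of the LPS-free arrays was left out. Its 3 other probe sets gave -1.22, -1.35 and -1.61, and the LPS-free mean of the last was 3.66, below the level minimum. The osmolyte carriers Slc6a6 and Slc5a3 thus moved in opposite directions.

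Slc6a13 encodes GAT2, a carrier of GABA and taurine. Its values were 6.96, 5.75 and 5.92 in unstimulated cells, 5.95, 4.91 and 5.31 at 6 h, and 5.02, 4.28 and 4.32 in the LPS-free group, with replicate 1 highest in each group. It fell late by 1.67 on the log2 scale (SE 0.38, adjusted p = 0.0130, or up to 0.0543 without LPS-free replicate 2 or 3). The creatine carrier Slc6a8 read 9.58, 9.13 and 9.36, then 9.13, 8.78 and 8.98, then 8.85, 8.74 and 8.88. Its late difference was -0.53 (adjusted p = 0.0485), which was called in 1 of the 9 fits with an array left out (that without 6 h replicate 1; otherwise adjusted p up to 0.156), and its other probe set gave 0.09.

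Slc6a19 encodes B0AT1, the brush border carrier of neutral amino acids. It read 7.59, 6.94 and 6.88 in unstimulated cells, 6.51, 6.45 and 7.12 at 6 h, and 6.66, 6.88 and 6.87 in the LPS-free group, and the groups overlapped. Its late difference of -0.33 had a 95% interval of -0.89 to 0.23, and a further probe set gave -0.74. The renal carrier Slc6a18 and the glycine carrier Slc6a9 differed by 0.07 and -0.21, with adjusted p of 0.886 and 0.785. Slc6a17, a carrier of synaptic vesicles, was lower by -1.10 only with the block (adjusted p = 0.00120, or 0.110 without it).

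Of the proton-coupled and SLC38 carriers, 8 were measured. Late, 1 of the 8 rose (beside 14% of all genes), 2 fell (beside 12.2%) and 5 did not pass the test. Slc36a1 encodes PAT1, a proton-coupled carrier of small amino acids at the brush border and in lysosomes. It read 6.20, 5.69 and 5.62 in unstimulated cells, 5.84, 5.33 and 5.56 at 6 h, and 4.66, 4.61 and 4.24 in the LPS-free group. All LPS-free arrays were below all others. The difference was -1.33 ± 0.22 (SE) or 2.52-fold (adjusted p = 0.00326), and -1.08 from 6 h (adjusted p = 0.0138, or 0.0593 without LPS-free replicate 3).

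Slc38a7 encodes a lysosomal exporter of glutamine and asparagine. Its values were 6.73, 6.19 and 5.97 in unstimulated cells, 6.40, 5.29 and 5.42 at 6 h, and 5.0, 5.0 and 5.01 in the LPS-free group. It fell by 1.29 on the log2 scale (SE 0.31, adjusted p = 0.0145), and the call was lost without LPS-free replicate 2 (adjusted p = 0.0511). Slc38a6 read 7.11, 7.13 and 7.69, then 7.86, 8.17 and 7.86, then 8.07, 7.96 and 8.43. It rose late by 0.85 ± 0.21 (SE), with an adjusted p of 0.0199, which was up to 0.0808 without unstimulated replicate 1 or 2 or LPS-free replicate 3. Both later groups were above all unstimulated arrays.

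Slc38a2 encodes SNAT2, the carrier of small neutral amino acids that cells induce when these are scarce. It read 12.43, 12.34 and 12.39 in unstimulated cells, 12.48, 12.66 and 12.61 at 6 h, and 12.67, 12.82 and 12.80 in the LPS-free group. The groups did not overlap, but the late difference of 0.38 had an adjusted p of 0.0733, and of 0.0307 with the block. Further probe sets of Slc38a2 gave late differences of 0.71 and, with the opposite sign, -0.11. The glutamine carrier Slc38a3 was -1.23 (adjusted p = 0.0802, or 0.00537 with the block). The lysosomal arginine sensor Slc38a9 was near the level minimum, below it on all 3 LPS-free arrays, with a late difference of -0.35 (adjusted p = 0.248). Slc15a4, a lysosomal carrier of histidine and peptides, and Slc38a10 differed by -0.02 and -0.50 (adjusted p = 0.964 and 0.306).

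Other probe sets bear on these values. Of the 37 genes, 16 had at least 1 further probe set at the level minimum, 26 in all. Of the 10 that belong to genes called late against unstimulated cells, 9 had the same sign as the probe set used, and the exception was that of Slc6a8. In 7 genes a further probe set differed by over 1.5-fold in at least 1 comparison, namely Slc43a2, Slc1a4, Slc6a8, Slc6a17, Slc7a6, Slc7a6os and Slc16a10.

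**Figure D4:**
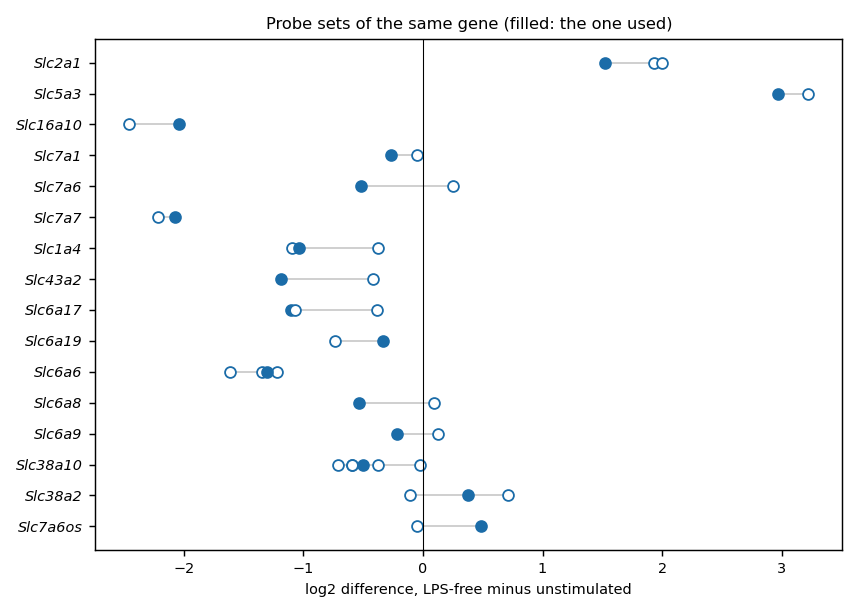
Late log2 differences (LPS-free minus unstimulated) of each probe set at the level minimum, for the 16 genes with more than 1; filled points are the probe set used and open points the others. The sets of Slc2a1, Slc5a3, Slc7a7, Slc16a10 and Slc6a6 lie on 1 side of 0, and those of Slc6a8 on both sides.

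Genes around the transporters were counted in 5 lists. The partner and traffic list holds chaperones, subunits and regulators of the surface level of transporters, and 5 of its 21 measured genes rose late (23.8%, beside 14% of all genes) and 3 fell (14.3%, beside 12.2%). With the block, 6 were higher (28.6%, beside 22.7%) and 4 lower (19.0%, beside 25.9%), so 47.6% were called, beside 48.6%. In log2 differences, those that rose were Txnip (1.48, adjusted p = 0.000664) and Arrdc4 (1.87, adjusted p = 0.00300), arrestin relatives that promote removal of GLUT1 from the surface, Cltrn (1.78), the collectrin that SLC6 carriers need at the brush border, and the AMP-activated kinase subunits Prkaa1 (1.10) and Prkaa2 (0.89). Those that fell were the kinase Sgk2 (at least 6.12-fold, since it was below the level minimum on all LPS-free arrays), Pdzk1ip1 (-1.12) and Slc9a3r1 (-1.01). Bsg, the chaperone of Slc16a1, differed by -0.05 (adjusted p = 0.910). The median of the list was 0.06, against -0.07 over all genes, and its count of 8 calls was 5 without LPS-free replicate 2 or 3.

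Of the 31 measured genes of amino acid sensing by the mTORC1 kinase, 2 rose late and 5 fell. These 7 are 22.6%, beside 26.2% of all genes. The share that rose was 6.45%, beside 14%, and the share that fell 16.1%, beside 12.2%. Rragd (at least 2.06-fold, below the level minimum on all earlier arrays) and Fnip1 (log2 difference 1.22) rose. Rragd passed the level minimum through the LPS-free arrays alone, and without it Fnip1 was the only riser. It is also among the 3 higher with the block. Flcn (-1.47), Castor2 (-1.22), Sesn2 (-1.17), Lamtor4 (-1.02) and Lamtor1 (-0.80) fell. The median was -0.38. With the block 3 were higher and 14 lower (54.8% called, beside 48.6% of all genes). By direction, 9.68% were higher beside 22.7%, and 45.2% lower beside 25.9%.

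The amino acid response list holds targets and members of the ATF4 pathway, which rises when amino acids are short. Of its 21 measured genes 9 fell late (42.9%, beside 12.2% of all genes) and 1 rose (4.76%, beside 14%). With the block 13 were lower (61.9%, beside 25.9%) and 4 higher (19.0%, beside 22.7%). The 9 were Chac1 (-1.45), Atf5 (-1.43), Psph (-1.29), Stc2 (-1.21), Sesn2 (-1.17), Aldh18a1 (-1.15), Shmt2 (-0.89), Cth (-0.63) and Psat1 (-0.43). Ddit3, the stress factor CHOP, rose by 2.23 (adjusted p = 0.000276). Atf4 itself differed by -0.30 (adjusted p = 0.152). The median of the list was -0.66. Psph, Psat1 and Shmt2 belong to serine and glycine synthesis, Aldh18a1 to proline synthesis and Cth to cysteine synthesis.

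For the first steps of sugar and lactate use, 2 of 14 measured genes rose late and 1 fell (21.4% called, beside 26.2% of all genes). The share that rose was 14.3%, beside 14%, and the share that fell 7.14%, beside 12.2%. With the block 3 were higher and 4 lower (7 of 14, where 48.6% of all genes were called). By direction, 21.4% were higher beside 22.7%, and 28.6% lower beside 25.9%. Hexokinase 2, Hk2 (1.85, adjusted p = 0.00105), and the pyruvate dehydrogenase kinase Pdk4 (0.94) rose, and ketohexokinase, Khk (-0.76), fell. The lactate dehydrogenases Ldha and Ldhb differed by -0.13 and -0.36 (adjusted p = 0.716 and 0.233, and for Ldhb 0.0391 with the block). The median was -0.07, the same as over all genes. For the first steps of amino acid use, 1 of 14 rose (7.14%, beside 14%) and 5 fell (35.7%, beside 12.2%). With the block 2 were higher (14.3%, beside 22.7%) and 9 lower (64.3%, beside 25.9%), so 78.6% were called, beside 48.6%. The arginase Arg2 rose by 2.13 (adjusted p = 9.53e-05), and the aromatic amino acid decarboxylase Ddc (-3.52), glutamine synthetase Glul (-1.37), Shmt1 (-1.02), Got2 (-0.97) and Gss (-0.85) fell, with a median of -0.68. The LPS-free mean of Ddc was 3.97, with 1 array below the level minimum, so the size of its fall rests on values near the floor. Sesn2 is in both the sensing and the response lists, and Slc38a9 is both a transporter and a sensing gene.

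At 6 h limma called none of these genes without the block. At an unadjusted p below 0.05 there were 6, 7, 2, 3 and 3 genes in the lists in the order given, and with the block 7, 5, 5, 4 and 4 were called. These are 33.3%, 16.1%, 23.8%, 28.6% and 28.6% of the lists, beside 24% of all genes. The lists were chosen with earlier results of these data known, so their counts are descriptions.

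**Figure D5:**
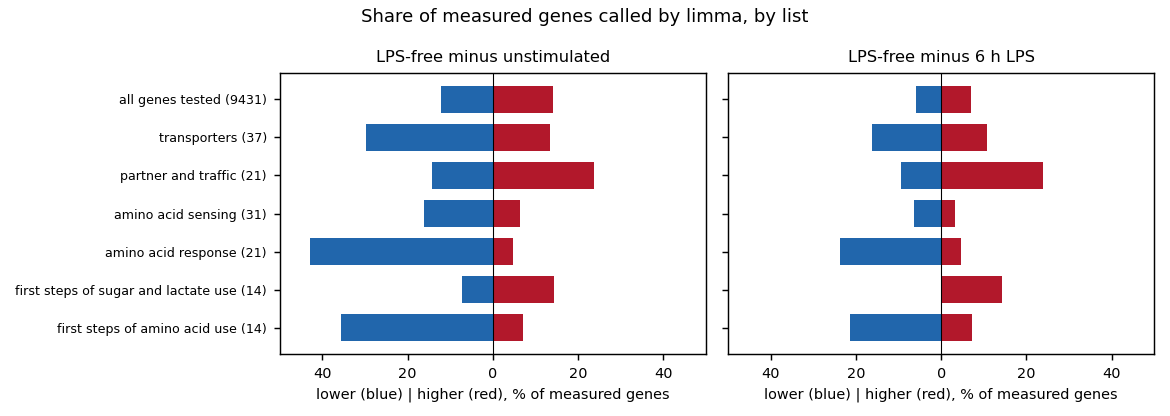
Share of measured genes called lower (blue, to the left) and higher (red, to the right) by limma in all 9431 genes, in the 37 transporter-family genes and in the 5 lists, with the number of measured genes in brackets. In LPS-free against unstimulated cells, the blue bar is 12.2% for all genes and 29.7% for the transporter families.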

How the data were processed

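Total RNA of the 9 samples was hybridised to Affymetrix mouse arrays, 1 per sample, with biotin label, per the labels' protocols. The authors made the deposited intensity values, 1 per probe set and array, with GCRMA (submitters' processing notes, which name no version), and the values run on a linear scale. GCRMA corrects background by probe sequence, which leaves dim probe sets bunched at a floor. The number of arrays limits the precision.

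Values were turned into log2 with no pseudocount. Of 45101 probe sets, 34945 carried 1 symbol in the platform annotation (64 controls, 932 with several symbols and 9160 with none were left out), and of 199 for the families, 1 shared probe set (Slc1a2 with Gm13872) was left out besides. For each gene, the probe set whose mean over the 9 arrays was highest was used. Genes reaching log2 4 on 3 or more arrays, 9431 in all, were fitted in R 4.3.3 with limma 3.58.1 (group means, eBayes, two-sided, 6 residual degrees of freedom), and p-values were adjusted over all of them by Benjamini-Hochberg; a call is an adjusted p below 0.05. The script was tested on simulated data. An "at least" fold sets the higher group's mean against log2 4 where the lower group was below it on all arrays.

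Samples with the same replicate number deviated together from their group means (9 correlations of 0.157 to 0.844, each over 0.1), so the numbers were taken to pair the samples and blocked values or counts are given where calls change. Across different numbers the correlations were 0.214 to 0.731 between replicates 2 and 3, and -0.743 to -0.375 between replicate 1 and the others. The same-number correlations of replicates 2 and 3 overlapped the range between them. The correlations thus set replicate 1 apart but do not show that replicates 2 and 3 are pairs.

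Genes named with each array's value were those called in any comparison and a list of well-known carriers. The members and lists were chosen with earlier results of these data known. Alternatives changed the normalization, level minimum, probe set rule, floor, spread model and samples fitted.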

Additional observations from a re-analysis of the deposited data

How the results depend on the processing

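The count of transporter genes called at 6 h against unstimulated cells went from 0 to 8 with the replicate block, and was 0 to 1 with an array left out. The count late against unstimulated cells was 16 and stayed within 1.5 times under all alternatives (11 to 17 with an array left out, 23 with the block, 22 with replicates 2 and 3 only, 13 with no level minimum). Late against 6 h it was 10, and 6 with no level minimum, 16 with the block, 15 with replicates 2 and 3 only, and 5 to 10 with an array left out. With replicates 2 and 3 only, calls also rose over all genes. Late against unstimulated cells, 59.5% of the transporter genes were called beside 38.3% of all genes, and late against 6 h 40.5% beside 22.5%. With no level minimum, 1911 of 18193 genes were called late against unstimulated cells, beside 2470 of 9431 in the main fit. Late against 6 h these counts were 1038 and 1238 of the same totals. In the partner and traffic list the count at 6 h was 0, and 7 with the block or 0 to 1 with an array left out; late against unstimulated cells it was 8, and 5 with no level minimum or 5 to 9 with an array left out; late against 6 h it was 7, and 4 in separate fits or 3 to 7 with an array left out. In the amino acid sensing list the count at 6 h was 0, and 5 with the block; late against unstimulated cells it was 7, and 17 with the block and 16 with replicates 2 and 3 only. Late against 6 h it was 3, and 14 with the block, 11 with replicates 2 and 3 only, 1 in separate fits, 6 with quantile normalization, with median centring, with the mean over probe sets or with the mean over measured probe sets, and 1 to 5 with an array left out. In the amino acid response list the count at 6 h was 0, and 5 with the block; late against unstimulated cells it was 10, and 17 with the block or with replicates 2 and 3 only; late against 6 h it was 6, and 13 with the block, 10 with replicates 2 and 3 only, and 2 to 7 with an array left out. Late against 6 h, the main counts were 33.3% of the partner, 9.68% of the sensing and 28.6% of the response list, beside 13.1% of all genes. With the block these shares were 42.9%, 45.2% and 61.9%, beside 31.7%. With the block the late counts against unstimulated cells went from 3 to 7 for the first steps of sugar and lactate use and from 6 to 11 for those of amino acid use. The cause of these shifts was not tested, other than that the alternatives without arrays hold fewer samples.

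Of the single transporter values that were called, 290 of the recomputed values kept their call and 21 lost it under the other alternatives, and with an array left out 198 kept it and 36 lost it. None of the called values changed sign. The replicate block lost no call of a transporter gene. The mean over measured probe sets was an alternative chosen after seeing the data. Genes near the log2 minimum, such as Slc16a4 and Slc38a9, are limited by signal over background.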
